A study of Mus musculus with 8 samples.

Results

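Very long protein-coding genes were defined as the GENCODE M21 gene records of mouse build GRCm38 on chromosomes 1 to 19 whose gene body, from the first to the last annotated base, spans at least 300 kb. This rule selected 541 of 20807 protein-coding genes (2.60%), which together cover 12.5% of these chromosomes. Their median length was 450.5 kb, 218 spanned at least 500 kb and 55 at least 1 Mb. The rule uses length alone and no measured value. At the limit, Jazf1 (299835 bp) fell just outside and Kcnq3 (300256 bp) just inside, with mean relative peak densities, as defined below, of 0.978 and 1.05.

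5-hydroxymethylcytosine (5-hmC) is made by TET enzymes, which oxidise methylated cytosine, mostly in CpG dinucleotides, and in many tissues the mark lies over gene bodies and enhancers. Very long mammalian genes consist almost wholly of introns, and many of them encode adhesion proteins, ion channels and receptors of neurons, which a B-cell precursor is not known to need. Others encode regulators of blood cells, such as the B-lineage transcription factor EBF1, and several span common fragile sites, regions that break under replication stress.

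The marks were mapped by hMeDIP-seq, an immunoprecipitation of sheared DNA with an antibody against 5-hmC, in sorted pro-B cells (B220+CD43+IgM-) from bone marrow of C57BL/6 mice aged 4 to 6 weeks. There were 2 HDAC7-deficient libraries (Hdac7 fl/- with mb1-Cre, which deletes the gene in cells that express Cd79a) and 2 libraries labelled wild-type. The study's text calls the controls Hdac7+/- littermates, so by that account both groups carry a null allele and the controls keep 1 working copy. How many mice gave each library is not given in the sources used here, so the tests measure the spread between libraries, which may be technical.

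Whether the controls carry Cre is not stated. Values listed for 4 libraries follow 1 order throughout: wild-type replicate 1, wild-type replicate 2, HDAC7-deficient replicate 1, HDAC7-deficient replicate 2.

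Each library is a list of peak positions called in that library alone. The lists give neither heights nor read counts, and depth is therefore unknown. The lists held 1246432 to 1364224 peaks on chromosomes 1 to 19, or 0.520 to 0.569 peaks per kb. HDAC7-deficient replicate 2 stood apart from the other 3 libraries. Its peak density on chromosomes 14 to 19 was 1.11 times that on chromosomes 1 to 13, against 0.993 to 0.996 in the others. Results that this touches are given by chromosome group. The targeted gene, Hdac7 (chr15:97792664-97844502), held 58, 44, 53 and 43 peaks. A peak list cannot check a conditional deletion, nor can 5-hmC peaks check the markers of the sort. Each library pools many cells, so more modified cells and more 5-hmC per cell cannot be told apart.

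The stretches of DNA behind the peaks differ widely in sequence even where all 4 libraries agree. Shown here are 200 bases from the middle of the widest intronic stretch covered by peaks of all 4 libraries for the 2 members with the highest and the 2 with the lowest mean peak density. They were read from the RefSeq GRCm38 sequence on the strand of the gene, 5′ to 3′, and capitals mark CpG dinucleotides, the main substrate of TET enzymes.
Gse1, chr8:120297978-120298177, plus strand: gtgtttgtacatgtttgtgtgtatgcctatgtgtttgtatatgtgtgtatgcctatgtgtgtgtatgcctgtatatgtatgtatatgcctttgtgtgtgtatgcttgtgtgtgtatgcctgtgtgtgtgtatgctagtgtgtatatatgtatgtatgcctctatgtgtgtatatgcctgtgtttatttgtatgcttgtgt
Bach2, chr4:32399661-32399860, plus strand: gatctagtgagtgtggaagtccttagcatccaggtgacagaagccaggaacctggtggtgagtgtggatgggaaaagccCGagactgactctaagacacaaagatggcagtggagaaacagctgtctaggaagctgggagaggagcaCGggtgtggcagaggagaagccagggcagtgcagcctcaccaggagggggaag
Epha5, chr5:84197395-84197594, minus strand: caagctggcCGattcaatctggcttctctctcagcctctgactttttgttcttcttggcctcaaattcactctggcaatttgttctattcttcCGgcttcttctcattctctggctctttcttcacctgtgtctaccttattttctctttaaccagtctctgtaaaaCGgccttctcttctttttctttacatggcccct
Dach1, chr14:97894131-97894330, minus strand: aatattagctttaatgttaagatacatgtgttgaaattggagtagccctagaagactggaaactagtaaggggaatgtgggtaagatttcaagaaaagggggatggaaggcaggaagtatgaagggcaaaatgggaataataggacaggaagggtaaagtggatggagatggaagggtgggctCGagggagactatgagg
The covered stretches were 365 bp wide in Gse1, 446 bp in Bach2, 269 bp in Epha5 and 217 bp in Dach1. The 200 bases shown from Gse1 are a TG-rich tandem repeat that is wholly soft-masked and holds 0 CpG. Those from Bach2 and Dach1 lie outside masked repeats and hold 2 and 1 CpG. Those from Epha5 are soft-masked over 76.5% of their length and hold 3 CpG.

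To compare lists of different size, each density was divided by the library's own density over chromosomes 1 to 19, which gives the relative peak density. A value of 1 is the average of the chromosomes. A peak was assigned to the gene that holds its midpoint, and unknown bases were left out of the length. Very long genes held fewer peaks per kb than the average in every library. Their relative peak density was 0.921, 0.954, 0.933 and 0.960. In peaks per kb these are 0.479, 0.536, 0.531 and 0.514. Relative peak bases gave nearly the same values, from 0.929 to 0.962. The remainder of chromosomes 1 to 19 stood at 1.01 in all 4 libraries.

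All shorter classes of genes lay above 1. Genes of 100 to 300 kb (1831 genes) had relative densities of 1.03 to 1.06, genes of 30 to 100 kb 1.02 to 1.08 and genes under 10 kb 1.02 to 1.09. The members minus the class of 100 to 300 kb gave -0.0988 ± 0.0283 (SD of the difference within libraries, n = 4), lower in 4 of 4 libraries. With 4 libraries, a two-sided exact sign-flip permutation test cannot give a p below 0.125, the value obtained here (adjusted p = 0.125 over 9 such within-library comparisons). Inside the group the density was also lower at the longest lengths, though it did not fall at every step. Spearman's rho of relative density with length over the 541 members was -0.253, -0.167, -0.202 and -0.166. Members of 300 to 400 kb (202 genes) stood at 0.977 to 0.988, and those of at least 1 Mb at 0.880 to 0.926, lower in 4 of 4 libraries (difference -0.0761 ± 0.0195, SD, n = 4, exact permutation p = 0.125).

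The number of CpG dinucleotides fell with gene length as well, from 16.8 per kb in genes under 10 kb to 9.81 in genes of 100 to 300 kb and 7.73 in the members, against 8.51 over chromosomes 1 to 19. Counted per CpG instead of per kb, the order was turned. Very long genes held 1.01 to 1.06 times the average number of peaks per CpG, genes of 100 to 300 kb 0.894 to 0.918 and genes under 10 kb 0.517 to 0.553. The members exceeded the 100 to 300 kb class by 0.134 ± 0.0287 per CpG in 4 of 4 libraries (SD, n = 4, exact permutation p = 0.125). Between these classes CpG per kb differed by a larger factor than peaks per kb, so the turned order follows from the divisor in every library.

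**Figure D1:**
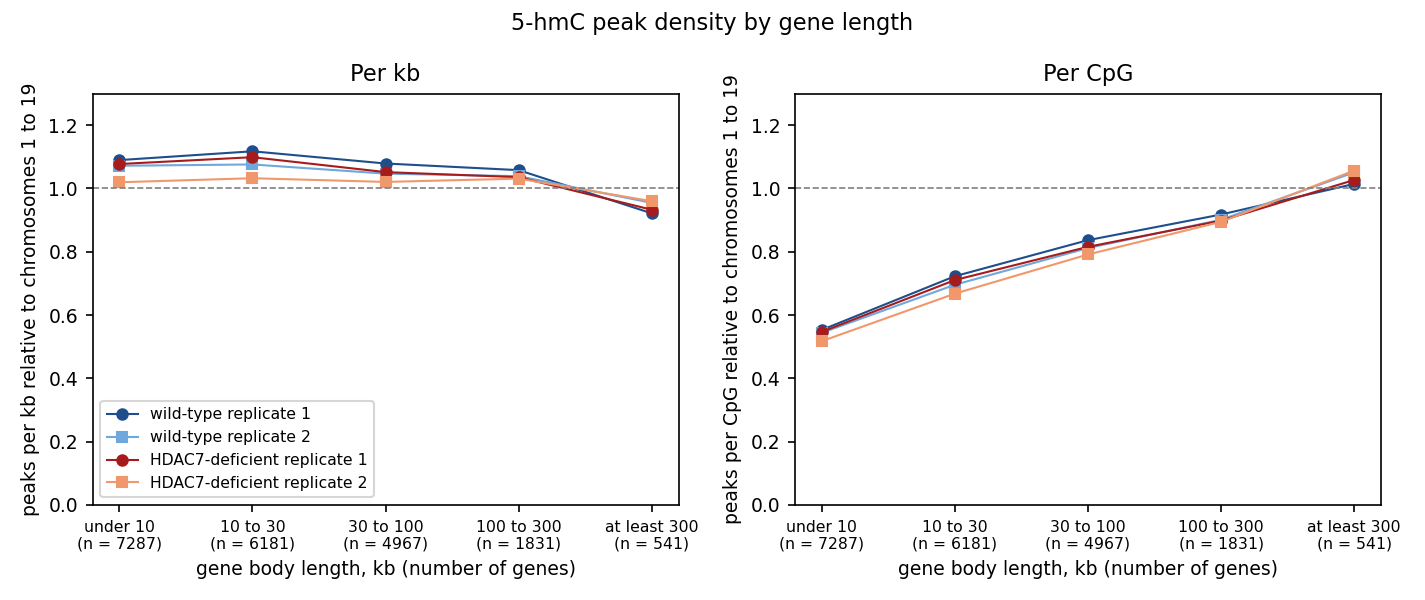
Relative 5-hmC peak density of protein-coding genes by length class, 1 line per library, with peaks per kb at the left and peaks per CpG at the right; the dashed line is the average over chromosomes 1 to 19. In all 4 libraries the genes of at least 300 kb are the lowest class per kb (0.921 to 0.960) and the highest per CpG (1.01 to 1.06).

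Single members differed widely from each other. The mean relative density over the 4 libraries ran from 0.641 to 1.59, with a median of 0.934 and quartiles of 0.862 and 1.02. Below 1 in all 4 libraries were 261 members, and above 1 in all 4 were 92. The order of members was largely shared between libraries. Spearman's rho over the 541 members was 0.866 between the replicates 1 of both groups, and 0.705 to 0.712, the lowest values, for the 3 pairs that include HDAC7-deficient replicate 2. The points share gene length and base composition, and members are not replicates. A member held between 112 and 3092 peaks in a library.

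A gene record can also hold other genes. Of the members, 482 contain no other protein-coding gene from end to end, and these had relative densities of 0.908, 0.946, 0.921 and 0.951. The 59 members with at least 1 such gene inside stood at 1.00 to 1.01. These values pool all bases, so the longest records weigh most. The median over single members, as the mean of 4 libraries, was 0.986 for the 59 and 0.930 for the 482. The longest record of all, Gm20388 (chr8:119910841-124345722, 4434.9 kb), encloses 71 protein-coding genes, Gse1 among them, and Fgfr2, the gene of a fibroblast growth factor receptor (chr7:130162451-133123350, 2960.9 kb), encloses 29. Altogether 17 members overlap another member.

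The 5 longest members show this mixture. Gm20388 held 3092, 2902, 3083 and 2464 peaks, a relative density of 1.34, 1.16, 1.22 and 1.04. Fgfr2 held 1618, 1777, 1723 and 1651 peaks, 1.02 to 1.07 times the average. Both records, each with many other genes inside, thus lay above 1 in every library. With peaks of at least 200 bp alone, the mean of Fgfr2 was 0.948 and that of Gm20388 1.02. The other 3 encode adhesion proteins of neurons and lay lower. Ptprd, a receptor tyrosine phosphatase of synapses, had relative densities of 0.798, 0.803, 0.777 and 0.833. Cntnap2, a member of the neurexin family, had 0.779, 0.833, 0.795 and 0.879. Lsamp, a membrane-anchored neuronal adhesion protein on chromosome 16, had 0.824, 0.899, 0.890 and 1.07, the last in the library with raised density on that chromosome.

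The 5 members with the highest mean density all encode nuclear proteins. Gse1 (chr8:120228456-120581390), a partner of histone-modifying repressor complexes, stood at 1.92, 1.38, 1.61 and 1.45. Bach2 (chr4:32238804-32586108), a transcriptional repressor of B cells, stood at 1.65, 1.47, 1.55 and 1.51. Arid1b, a subunit of the BAF chromatin remodeller, stood at 1.63, 1.28, 1.63 and 1.35. In these genes the genotypes overlapped. Hivep3, a large zinc finger factor, had 1.49, 1.38, 1.61 and 1.41. Foxn3, a forkhead repressor, had 1.69, 1.30, 1.42 and 1.33. In each of the 5, both replicates 1 lay above both replicates 2, and no library gave a value below 1.28. The order depended on the peaks used, since with peaks of at least 200 bp alone the mean of Gse1 was 1.31, below Bach2 (1.46), Prkcb (1.40) and Hivep3 (1.33).

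Of the 5 lowest, 3 encode adhesion or guidance receptors of neurons. Dach1 (chr14:97786853-98169765), a developmental transcription cofactor, had relative densities of 0.607, 0.618, 0.578 and 0.760, the highest again in HDAC7-deficient replicate 2 on chromosome 14. Epha5 (chr5:84054761-84417382), an ephrin receptor of axons, had 0.657, 0.682, 0.634 and 0.705. Adgrl3, an adhesion receptor of synapses, had 0.666, 0.681, 0.676 and 0.686. Pcdh9, a protocadherin on chromosome 14, had 0.627, 0.668, 0.637 and 0.802. The highest of these values lay far under the lowest of the top 5. Zfp697, a zinc finger gene, had 0.668, 0.676, 0.690 and 0.704. Its record encloses 5 other protein-coding genes, and 63.3 kb of its 371.4 kb, without unknown bases, held no peak in any library.

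**Figure D2:**
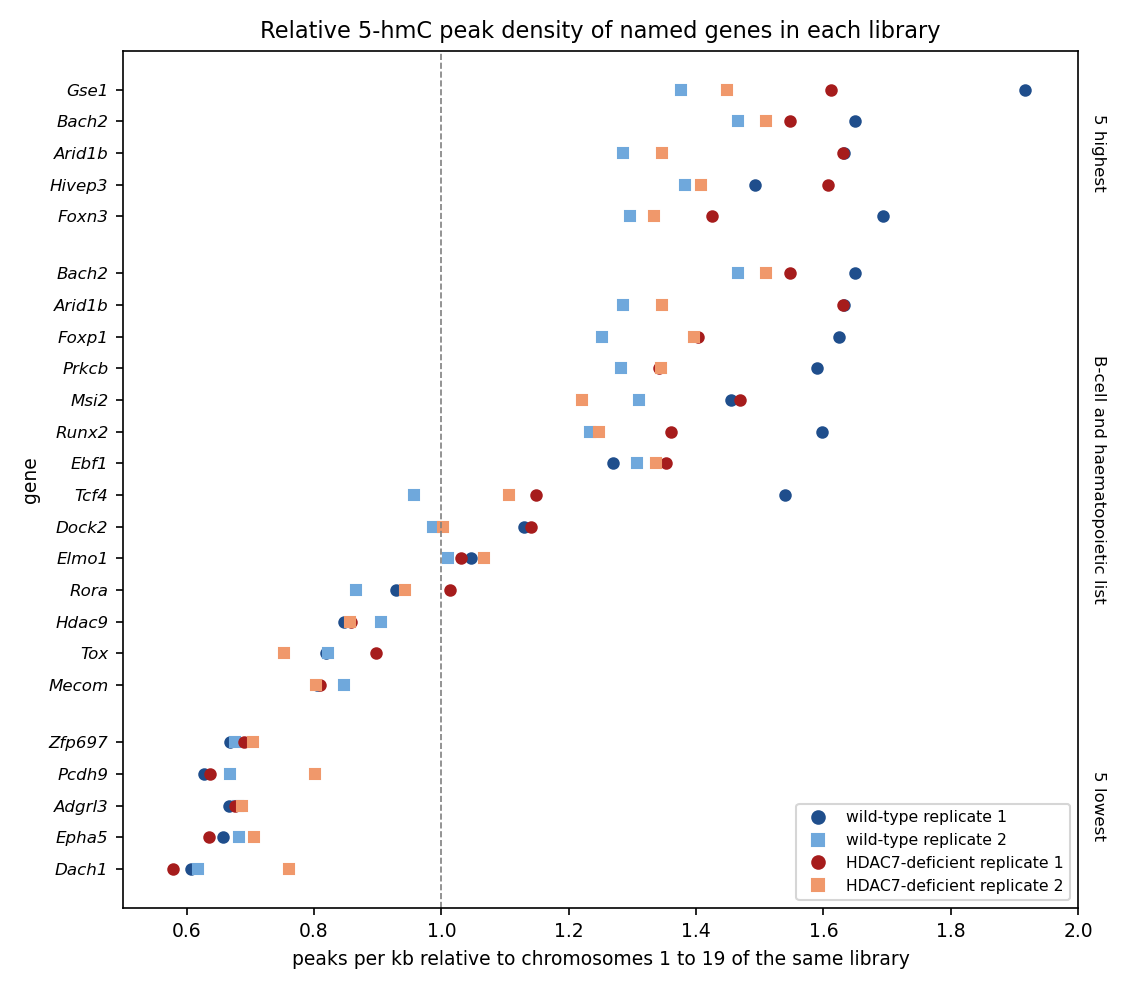
Relative 5-hmC peak density (x axis, peaks per kb relative to chromosomes 1 to 19 of the same library) of the 5 highest members, the 14 members of the B-cell and haematopoietic list and the 5 lowest members, with 1 symbol per library. Bach2 and Arid1b belong to both upper blocks. Every symbol of the 5 highest members lies above every symbol of the 5 lowest. Wild-type and HDAC7-deficient symbols interleave except in Ebf1, Rora and Zfp697, where both HDAC7-deficient symbols lie higher.

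Members were then grouped by known function in 5 lists. The lists were drawn up with earlier results of these data in view, so their counts are a description, and 17 members stand in more than 1 list. Of 40 genes in the B-cell and haematopoietic list, 14 were long enough to be members. Their median relative density was 1.25, against 0.934 for all members, and 11 of 14 lay above the member median. In all 4 libraries 8 of the 14 lay above 1 and 3 below it, and 8 were among the 54 densest members. By library the list's median was 1.36, 1.12, 1.24 and 1.16.

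The transcription factors of the B lineage in this list were dense in peaks, with 1 value below 1. Ebf1 (chr11:44617317-45008091), which specifies the B lineage, had 258, 287, 301 and 280 peaks, relative densities of 1.27, 1.31, 1.35 and 1.34. Foxp1, a forkhead factor required for early B-cell development, had 1.62, 1.25, 1.40 and 1.40. Tcf4, an E protein, had the widest spread of the list, 1.54, 0.958, 1.15 and 1.11. Foxp1 shares peaks with an overlapping member record, Gm20696, whose mean was 1.35. Runx2, a Runt family factor best known from bone, had 1.60, 1.23, 1.36 and 1.25 and overlaps the member Supt3.

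Signalling and RNA-binding members of the list followed. Prkcb, the protein kinase C of B-cell receptor signalling, had 1.59, 1.28, 1.34 and 1.34. Msi2, an RNA-binding protein of blood stem cells, had 1.46, 1.31, 1.47 and 1.22. Dock2, an exchange factor for Rac in leukocytes, had 1.13, 0.986, 1.14 and 1.00. Dock2 and its partner Elmo1 (1.05, 1.01, 1.03 and 1.07) thus lay close to the average. With peaks of at least 200 bp alone, Elmo1 had a mean of 0.989 and Tcf4 of 0.988. Means below 1 over the 4 libraries were found for the nuclear receptor Rora (0.938), the class IIa deacetylase Hdac9 (0.867), the HMG-box factor Tox (0.823), which acts in T cells, and the stem cell factor Mecom (0.816). Of these only Rora crossed 1 in a library, at 1.01 in HDAC7-deficient replicate 1.

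Genes of synaptic and neuronal adhesion made up the largest list and the lowest. Of 77 listed genes 70 were members. Their median relative density was 0.858, 16 of 70 lay above the member median, 49 lay below 1 in all 4 libraries and 3 above 1 in all 4. They held 20 of the 54 sparsest places and 2 of the 54 densest. The highest was Dscaml1 (mean 1.29), a cell adhesion molecule, and the lowest Epha5 (0.670). Channels and receptors (48 members of 57) had a median of 0.907, from Kcnh7, a potassium channel (0.725), to Cacna1e, a calcium channel (1.29), and 29 of 48 lay below 1 in all 4 libraries. Fragile-site genes (27 members of 30) had a median of 0.890, from Naaladl2 (0.764) to the oxidoreductase gene Wwox (1.14), and 19 of 27 lay below 1 in all 4 libraries. Signalling enzymes (32 member records of 47 listed genes, with Arhgap26 recorded under 2 identifiers) had a median of 1.02, from Arhgap15, a regulator of Rac (0.764), to Prkcb (1.39). The 367 members in no list had a median of 0.943.

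**Figure D3:**
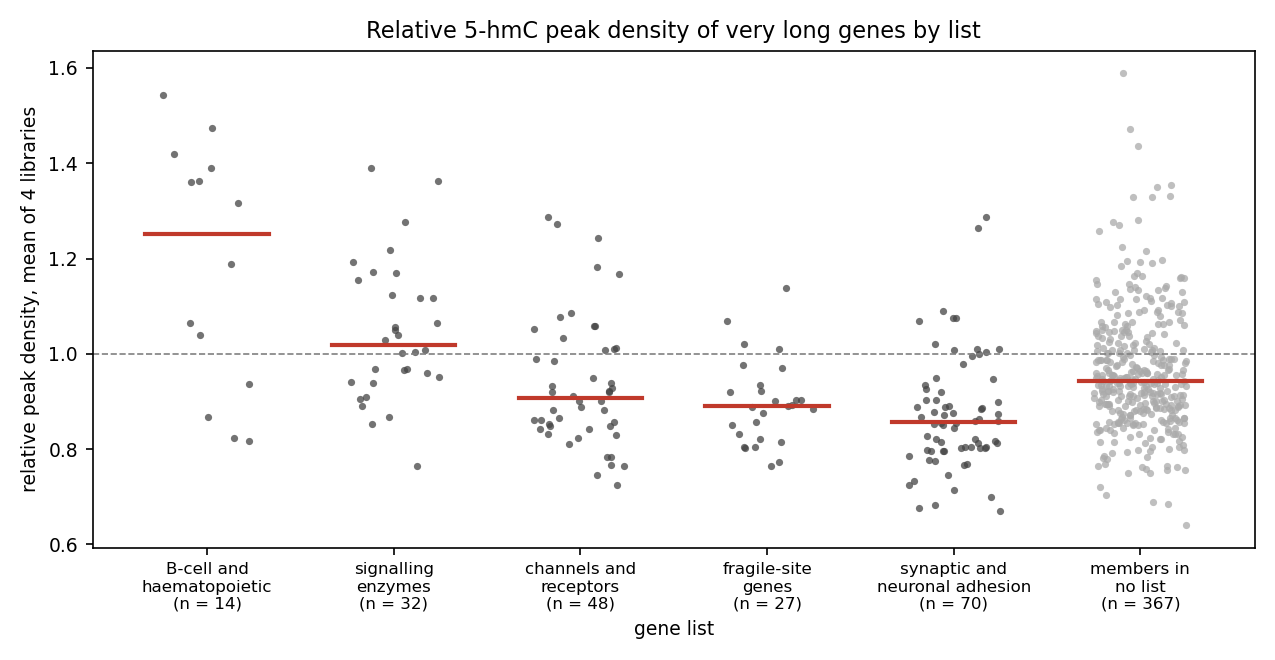
Relative 5-hmC peak density of each very long gene (1 point per gene, mean of 4 libraries) by gene list, with the list median as a red bar and the chromosome average as a dashed line. The medians run from 1.25 in the B-cell and haematopoietic list to 0.858 in the synaptic and neuronal adhesion list, and the points of all lists overlap.

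The lists also differed in CpG content. The median number of CpG per kb was 10.9 in the B-cell and haematopoietic list, 9.13 among signalling enzymes, 6.34 among channels and receptors, 6.33 among fragile-site genes and 5.89 among adhesion genes. Over all members the relative density rose with CpG per kb, with Spearman's rho of 0.406 to 0.570 in the 4 libraries (541 members). The third of members poorest in CpG stood at 0.832 to 0.901 and the richest at 1.03 to 1.06, higher in 4 of 4 libraries (difference 0.185 ± 0.0430, SD, n = 4, exact permutation p = 0.125). Counted per CpG, the B-cell and haematopoietic list no longer led. Its median was then 1.01, below the 1.05 of all members, and signalling enzymes had 1.00. Channels and receptors had 1.25, fragile-site genes 1.21 and adhesion genes 1.15.

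The DNA under the peaks differed little from the gene bodies in CpG and more in repeats. Of 200-base windows centred on the peaks in members, 29.5% to 30.4% held no CpG, against 30.9% of all 1540783 such windows laid end to end over the members. Windows on regions covered in all 4 libraries held no CpG in 32.5% of cases. The repeat of the Gse1 stretch was searched for as 5 TG pairs in a row (TGTGTGTGTG, or CACACACACA on the other strand). It was present in 4.08% of all windows in the members. The share was 5.93% of peaks in wild-type replicate 1 and 5.29% in HDAC7-deficient replicate 1, but 3.76% and 3.60% in replicates 2 of the same groups. Both replicates 1 thus lay above both replicates 2, and the same order was found for soft-masked bases, 37.1% and 35.1% in replicates 1 and 30.6% and 31.0% in replicates 2, against 27.9% of all windows. Regions covered in all 4 libraries were soft-masked over 37.3% of their windows. Outside the members the repeat was present in 3.31% to 5.19% of peaks, in the same order of libraries. Leaving out the peaks with this repeat kept Gse1, Bach2, Arid1b and Hivep3 as the 4 densest members and Dach1 as the sparsest, and the median of the B-cell and haematopoietic list stayed at 1.25.

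Peaks were then counted in 10 equal segments of the gene body from 5′ to 3′ and in the 100 kb on each side. In very long genes the density was highest in the first segments and declined toward the middle. The first segment had relative densities of 0.960, 0.996, 0.975 and 0.991. The last segment had 0.897, 0.935, 0.917 and 0.930. The first segment exceeded the last by 0.0608 ± 0.00225 (SD, n = 4), in 4 of 4 libraries (exact permutation p = 0.125). Relative to the whole body, the first segment stood at 1.04, 1.04, 1.05 and 1.03 and the last at 0.973, 0.980, 0.983 and 0.969.

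Both flanks lay above the adjoining segment. The upstream flank had relative densities of 0.988 to 1.01 and the downstream flank of 1.01 to 1.03. The last segment minus the downstream flank gave -0.0990 ± 0.0101 (SD, n = 4, lower in 4 of 4 libraries, exact permutation p = 0.125), where CpG per kb was 8.57 in both and soft-masked bases made up 25.6% and 31.6%. Bodies as a whole had 0.924, 0.938, 0.924 and 0.948 times the density of their flanks. Single members often departed from the summed profile, since the first segment was above the body in all 4 libraries in 141 members and below it in 85.

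Shorter genes had a steeper profile at a higher level. In genes of 100 to 300 kb the first segment stood at 1.07 to 1.15 and the last at 0.955 to 0.993, and in genes of 30 to 100 kb the values were 1.07 to 1.22 and 0.913 to 0.970. Within the members, the 14 genes of the B-cell and haematopoietic list had 1.19 to 1.35 in the first segment, 1.20 to 1.45 in the fourth and 0.914 to 1.02 in the last. The 70 adhesion genes had 0.860 to 0.907 in the first segment and 0.821 to 0.917 in the last. Signalling enzymes declined from 1.10 to 1.15 in the first segment to 0.899 to 0.972 in the last.

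**Figure D4:**
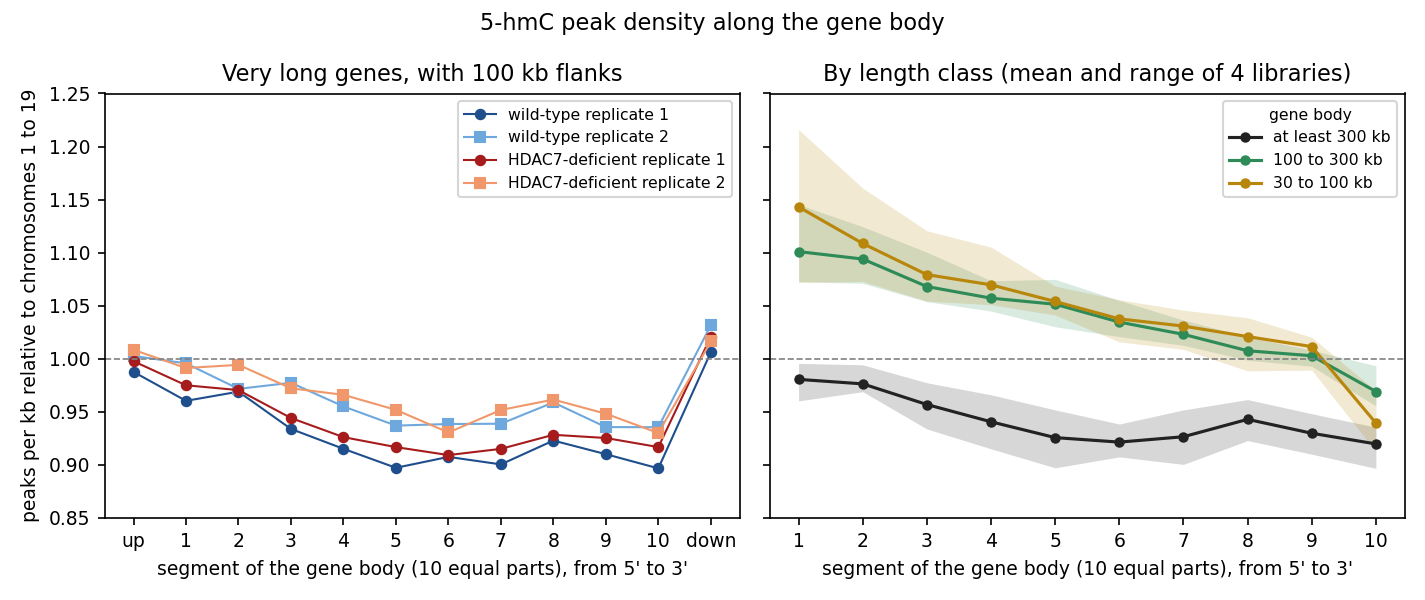
Relative 5-hmC peak density along the gene body in 10 equal segments from 5′ to 3′. At the left, very long genes with the 100 kb upstream and downstream, 1 line per library; at the right, 3 length classes as the mean (line) and range (band) of the 4 libraries, on a y axis that does not start at 0. In very long genes all 4 libraries fall from 0.960 to 0.996 in the first segment to 0.897 to 0.935 in the last, and rise above 1 in the downstream flank.

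Nearly all of the sequence of these genes is intronic, and introns set the overall value. Introns had relative densities of 0.924 to 0.963. Annotated exons, although richer in CpG (18.7 per kb against 7.51), had 0.750 to 0.858, lower in 4 of 4 libraries (difference -0.149 ± 0.0366, SD, n = 4, exact permutation p = 0.125). Promoters, taken as the 1000 bp before and 100 bp after the gene start, had 1.14, 1.07, 1.14 and 0.956. With 37.4 CpG per kb, they held fewer peaks per CpG than exons or introns in every library. A peak midpoint lay in 257, 254, 275 and 222 of the 541 promoters.

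The question of the study, whether loss of HDAC7 alters 5-hmC in pro-B cells, was put to these genes at the level of peak density. Wild-type and HDAC7-deficient libraries did not separate. The relative density averaged 0.938 ± 0.0234 in wild-type and 0.946 ± 0.0191 in HDAC7-deficient libraries (SD, n = 2 each), a ratio of 1.01 ± 0.0324 (two-sided exact permutation test, p = 0.667). With 2 libraries per group this test cannot give a p below 0.333. Leaving out wild-type replicate 1 gave 0.991, and leaving out HDAC7-deficient replicate 2 gave 0.995. The ratio of relative peak bases was 1.01 ± 0.0279 (exact permutation p = 0.667), of the first segment to the body 0.996 ± 0.00849 (exact permutation p = 1) and of the body to the flanks 1.01 ± 0.0211 (exact permutation p = 0.667).

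The chromosome groups differed in the one library that stood apart. Over the 415 members on chromosomes 1 to 13 the relative density was 0.925, 0.958, 0.938 and 0.939, and the ratio of the group means 0.997. The divisor for HDAC7-deficient replicate 2 includes its raised chromosomes, and with chromosomes 1 to 13 alone as divisor the ratio was 1.01, on the other side of 1. Over the 126 members on chromosomes 14 to 19 it was 0.908, 0.942, 0.915 and 1.03, with a ratio of 1.05. There, HDAC7-deficient replicate 1 alone stood at 0.989 times the wild-type mean and replicate 2 at 1.11 times.

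Each gene was also tested by itself with limma on the log2 relative density, over the 10612 protein-coding genes with a mean of at least 10 peaks per library. All 541 members passed this filter. No gene was called at an adjusted p under 0.05, so 0 of the 541 members were higher and 0 lower, against 0% of all genes tested in each direction. At an unadjusted p under 0.05 there were 119 higher and 224 lower genes among all tested, and 5 higher and 3 lower members. The lowest adjusted p was 0.552 over all genes and 0.999 among members. The members' log2 differences ran from -0.29 to 0.26, with a median of 0.02 (all genes tested: -0.02) and a median standard error of 0.12. Over all genes the median standard error was 0.26. The call of 1 member depended on a single library. Gm20388, the longest record, had a log2 difference of -0.15 ± 0.071 SE (limma adjusted p = 0.999) with groups that overlapped, and without wild-type replicate 2 it was -0.25 ± 0.051 SE (limma adjusted p = 0.0049). That fit has 1 wild-type library, which is assumed to vary like the HDAC7-deficient pair.

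None of the largest differences among members passed the test. St18, a zinc finger factor of neurons on chromosome 1, had 160, 186, 217 and 205 peaks, with relative densities of 0.823, 0.886, 1.02 and 1.02 (log2 difference 0.26 ± 0.12 SE, limma adjusted p = 0.999). Pde11a, a cyclic nucleotide phosphodiesterase on chromosome 2, had 203, 194, 193 and 143 peaks and 1.12, 0.988, 0.969 and 0.763 (log2 difference -0.29 ± 0.13 SE, limma adjusted p = 0.999). Pdzd2, a PDZ domain protein on chromosome 15, had 212, 251, 202 and 185 peaks and 1.07, 1.18, 0.933 and 0.908 (log2 difference -0.29 ± 0.12 SE, limma adjusted p = 0.999). In these 3 genes the groups did not overlap, and none passed the test. With peaks of at least 200 bp alone the log2 differences were 0.0033 for St18, -0.10 for Pde11a and -0.18 for Pdzd2. Prkca, a protein kinase C, had 1.35, 1.08, 1.08 and 0.964 and overlapped between the groups (log2 difference -0.24).

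The other 2 large positive differences lay on chromosome 18, where the density of HDAC7-deficient replicate 2 was raised. Nol4, which encodes a nucleolar protein, had 0.756, 0.828, 0.852 and 1.03 (log2 difference 0.24). Gm42416, a record over clustered protocadherin genes that encloses 36 protein-coding genes, had 0.823, 0.937, 0.938 and 1.14 (log2 difference 0.24). The groups did not overlap in either gene, and the highest value came from the library that stood apart. The part of that library's raised density in these differences was not tested.

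Members whose groups do not overlap were counted as a description. In 71 members (13.1%) both HDAC7-deficient libraries lay above both wild-type libraries, against 12.4% of all genes tested. In 42 members (7.76%) both lay below, against 17.6% of all genes tested. On chromosomes 14 to 19, 23 of 126 members lay above (18.3%, against 15.4% of all genes tested there) and 2 below (1.59%, against 13.2%). On chromosomes 1 to 13, 48 of 415 lay above (11.6%, against 11.6%) and 40 below (9.64%, against 18.8%). With the densities divided by that of chromosomes 1 to 13 alone, the same 415 members gave 61 above (14.7%, against 12.7%) and 32 below (7.71%, against 17.8%). The lower count depended on the peaks used. With peaks of at least 200 bp alone it was 84 members (15.5%, against 17.5% of all genes). Among the lists, both HDAC7-deficient libraries lay above in 9 and below in 2 of the 70 adhesion genes. The counts above and below were 3 and 4 of 48 channels and receptors, and 4 and 3 of 27 fragile-site genes. Of 32 signalling enzymes they were 5 and 3. In the 14 genes of the B-cell and haematopoietic list, 2 lay above, namely Ebf1 and Rora, and 0 below. Over all genes tested the shares were 12.4% above and 17.6% below, and the list counts are a description.

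**Figure D5:**
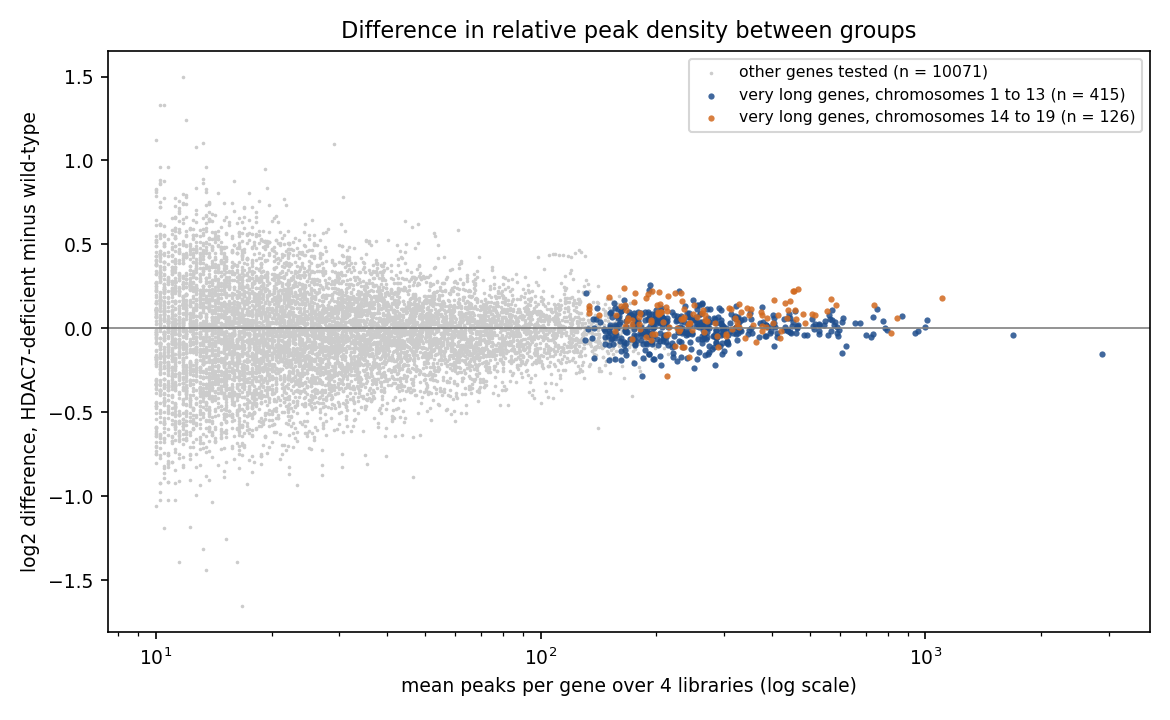
Log2 difference in relative peak density, HDAC7-deficient minus wild-type, of each gene tested (y axis) against its mean number of peaks (x axis, log scale), with very long genes coloured by chromosome group. Very long genes lie between -0.29 and 0.26, in a narrower band than genes with few peaks, and more of those on chromosomes 14 to 19 lie above 0 than below.

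Overlapping peaks of the 4 lists were merged into 301696 regions with their midpoint in a member. All 4 libraries had a peak in 12.3% of them, against 12.6% of regions elsewhere. Regions found in the HDAC7-deficient pair alone made up 2.95% (8900 regions), and the reverse pattern 2.40% (7242 regions), against 2.90% and 2.44% elsewhere. The quotient of the former to the latter was 1.16 for members on chromosomes 1 to 13 and 1.48 on chromosomes 14 to 19, and elsewhere 1.12 and 1.44. In each chromosome group the values for very long genes lay close to those elsewhere. A member held a median of 465 regions, of which a median of 56 (range 25 to 626) were found in all 4 libraries. Ebf1 held 561 regions, 56 of them in all 4 libraries, 19 in the HDAC7-deficient pair alone and 15 in the wild-type pair alone. Bach2 held 533, 64, 16 and 11, and Dach1, as long but sparse, 249, 39, 10 and 5.

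The longest stretch of a member without a peak in any library had a median of 7705 bp. The 4 longest such stretches were gaps of the assembly. They lay in Dock2 (137.8 kb), Myo3a (116.2 kb), Maml2 (90.7 kb) and Ccdc148 (65.2 kb), and 98.4% or more of each was unknown bases. The next lay in Gm20388 and Zfp697, both of 63.3 kb and with no unknown base, and were soft-masked over 80.5% and 52.8% of their length.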

How the data were processed

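Pro-B cells were profiled by hMeDIP-seq in 2 wild-type and 2 HDAC7-deficient libraries. Per the labels, the study's methods and the submitters' processing notes, the authors trimmed reads (Trim Galore 0.4.2, Cutadapt 1.6), mapped them to mm10 (the methods name bwa, the notes Bowtie2), removed duplicates, and called peaks in each library from RPKM-normalized signal with MACS2 bdgpeakcall (cutoff 250, minimum length 10, maximum gap 10). The methods state that peaks meeting input peaks were removed. Whether this preceded deposit is not stated, so the lists may still hold such peaks. The deposited values are peak positions only. Inputs (4 libraries) were not analysed here.

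Peaks were counted by midpoint over GENCODE M21 genes (Python 3.11.15; pandas 2.3.3; NumPy 2.4.6) and checked against a direct count and on simulated data. Densities leave out unknown bases. The test across genes was limma 3.58.1 (R 4.3.3) with a mean trend on log2 relative density, 0.5 peaks added, in genes with a mean of at least 10 peaks, with Benjamini-Hochberg adjustment and a threshold of 0.05. Single values were compared by exact permutation. Named are the 5 longest, 5 densest and 5 sparsest members, the 3 largest log2 differences in each direction, and all B-cell and haematopoietic members; of other lists the highest and lowest member. The members and lists were chosen with earlier results of these data known. Myo3a, Maml2, Ccdc148, Gm20696 and Supt3 were named after their values were seen. Figures were drawn with matplotlib 3.10.9. Alternatives are given in the closing section.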

Additional observations from a re-analysis of the deposited data

How the results depend on the processing

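The ratios of HDAC7-deficient to wild-type libraries lay so close to 1 that their direction turned under some settings. With members of at least 500 kb the ratio of the first segment to the body became 1.00, just above 1, and with peaks of at least 200 bp alone the ratio of the body to the flanks became 0.993. Leaving out 1 library each, the ratio of relative peak density ran from 0.991 to 1.03, of relative peak bases from 0.992 to 1.02, of the first segment to the body from 0.990 to 1.00 and of the body to the flanks from 0.992 to 1.02. Each range crosses 1, so no direction is given for these ratios. The remaining alternatives kept the direction of these 4 ratios. The density ratio also kept it under 2 alternatives chosen after the data were seen, namely members that hold no other protein-coding gene and peaks without TG or CA repeats.

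In the limma fits, 0 members were called under all settings except 1. Without wild-type replicate 2, 1 member was lower, Gm20388 (log2 difference -0.25 ± 0.051 SE, limma adjusted p = 0.0049); its lone wild-type library is assumed to vary like the other group; over the other alternatives the lowest adjusted p of a member ran from 0.359 to 1.00. Leaving out 1 library, the count of lower members thus ran from 0 to 1 and that of higher members stayed at 0. The log2 differences of the 6 named genes kept their sign in 75 of 75 refits, but not their size. With 1 library left out, Prkca ran from -0.07 (without wild-type replicate 1) to -0.40 (without wild-type replicate 2). Without HDAC7-deficient replicate 2 it was -0.15. Without HDAC7-deficient replicate 1 and without HDAC7-deficient replicate 2, Pde11a was -0.46 and -0.11, Gm42416 0.38 and 0.10, and Nol4 0.38 and 0.11. Without wild-type replicate 1, Gm42416 was 0.14. With peaks of at least 200 bp alone, St18 was 0.0033, Pde11a -0.10, Prkca -0.08 and Pdzd2 -0.18; in peak bases, St18 was 0.13 and Pde11a -0.12. Of 216 recomputed levels of the 27 named genes, 190 stayed within 1 SD and 26 moved, most of them with peaks of at least 200 bp alone, where Foxn3 was 1.19, Foxp1 1.21 and Ebf1 1.12.

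Members whose groups do not overlap numbered 32 above (14.7%) and 13 below (5.96%) among genes of at least 500 kb, and 120 above and 120 below (12.6% each) among those of at least 200 kb, against 12.4% and 17.6% of all genes tested. With peaks of at least 200 bp alone, over the same members and libraries, 84 lay below (15.5%, against 17.5%), and the cause was not tested. With 1 library left out, where fewer comparisons have to hold, 136 to 244 lay above (25.1% to 45.1%, against 28.1% to 30.4% of all genes) and 99 to 201 below (18.3% to 37.2%, against 32.3% to 38.1%). The median of the B-cell and haematopoietic list was 1.09 with peaks of at least 200 bp and 1.14 in peak bases, above the all-member medians of 0.948 and 0.935.

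The labels give the replicate number and no shared animal, batch or day, and the 2 pairs were not treated as paired, although repeats and the densest genes differed by replicate number. Deviations from the group means correlated by number at 0.11 over all genes tested and 0.25 over members. With the replicate number as a block the 4 ratios were 1.01, 1.01, 0.996 and 1.01, limma called 1 gene higher and 5 lower overall and 0 members, and 152 members were above (28.1%, against 21.2% of all genes) and 96 below (17.7%, against 28.3%) in both same-numbered pairs.

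The lists hold no heights or read counts, so a difference in the strength of peaks could not be seen, and counting error could not be computed.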
